A study of Mus musculus with 10 samples.

Results

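Endothelial and blood-brain barrier genes were examined in the hypothalamus of mice carrying a C26 colon adenocarcinoma. The set was a fixed list of 35 gene symbols, each represented by the brightest probe set that the platform annotation pairs with that gene alone. Such a probe set existed for 34 of the 35 genes, out of 18820 genes with a probe set of their own. Pltp, a phospholipid transfer protein gene, shared its probe set with Ctsa and is not analysed here. Brain endothelial cells line the capillaries and are sealed to each other by tight junctions, so that nutrients enter through dedicated transporters and foreign compounds are pumped back by ATP-driven efflux pumps. In inflammation endothelial cells can display adhesion molecules that capture leukocytes from the blood. Parts of the hypothalamus, such as the median eminence, have fenestrated capillaries that lack this barrier.

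The animals were male CDF1 mice, the hybrid of BALB/c and DBA/2, aged 10 to 11 weeks. Tumour-bearing mice received 1000000 C26 cells, a transplantable tumour line used as a model of cancer cachexia, under the skin of the flank in 0.2 ml of buffered salt solution, and control mice received the same volume without cells. The hypothalamus was removed on day 20, and RNA of 5 tumour-bearing and 3 control mice was hybridised on 1 array per mouse. In addition, 1 array held RNA pooled from 5 tumour-bearing mice and 1 array RNA pooled from 4 control mice. Whether the pools contain the individually measured mice is not stated, so they entered no main test and their values are given beside those of the individual mice.

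Levels are log2 values made by the authors with RMA, the robust multi-array average, which sets all arrays to a common distribution. A probe set was tested when it lay above 4.32 (20 before taking logs) on 3 or more of the 8 individual mice. Of the 34 genes 31 passed, among 12978 genes tested, and 3 (Sele, Selp and Nos2) did not. All 9 defining endothelial markers (Cldn5, Pecam1, Cdh5, Tek, Tie1, Flt1, Kdr, Emcn and Esam) were above that level on all 8 individual arrays. Their summed linear level was 1028 to 1190 in tumour-bearing mice and 964 to 1241 in controls, so the groups overlapped. Correlations between individual arrays over the tested probe sets were 0.980 to 0.989. Summed midbrain markers were 648.6 to 1987 in tumour-bearing mice and 2062 to 2431 in controls, without overlap. Summed hypothalamic markers were 3511 to 4508 in tumour-bearing mice and 3233 to 3596 in controls, with 7 of 8 differences upward. Of these 5 were at an unadjusted limma p under 0.05, against 3.78% of all tested genes higher at that p, and 0 past the adjusted threshold. Groups did not overlap for Avp, Oxt and Trh (higher in tumour-bearing mice, against 3.11% of all tested genes). The astrocyte water channel gene Aqp4 was lower without overlap (-0.51 ± 0.11 SE, limma adjusted p = 0.219). Of the 5 astrocyte markers 2 differed upward and 3 downward, with Slc1a3 at 0.13 ± 0.04 SE. Their summed level was 3268 to 3573 in tumour-bearing mice and 3434 to 3769 in controls, so the groups overlapped. Summed microglial markers overlapped, at 372 to 507 in tumour-bearing mice and 499 to 536 in controls. Their part in the differences reported here was not tested.

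Most endothelial and barrier genes differed little between tumour-bearing and control mice, and 4 stood furthest from 0 by their unadjusted p. Vwf, the clotting factor carrier stored in endothelial granules, was 1.77-fold higher in tumour-bearing mice, and Podxl, a sialomucin of the luminal surface, 1.29-fold higher. Slc16a1, the monocarboxylate transporter MCT1, was 1.38-fold lower in tumour-bearing mice, and Tek, the angiopoietin receptor Tie2, 1.20-fold lower. None of these differences passed the adjusted threshold of 0.05 in limma (Benjamini-Hochberg adjustment across every probe set that was tested). By that test 0 of the 31 genes were called, against 0.0771% of all tested genes. At an unadjusted p under 0.05 in limma, 2 of 31 were higher (Vwf and Podxl) against 3.78% of all tested genes, and 2 of 31 were lower (Slc16a1 and Tek) against 6.51%. The groups did not overlap for 1 gene in the higher direction, Vwf, against 3.11% of all tested genes, and for 1 in the lower direction, Slc16a1, against 5.19%. The median difference (tumour-bearing minus control) of the 31 genes was -0.01 on the log2 scale, equal at this precision to the -0.01 of all tested genes. In whole tissue, fewer cells of a type and less RNA per cell cannot be told apart.

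**Figure D1:**
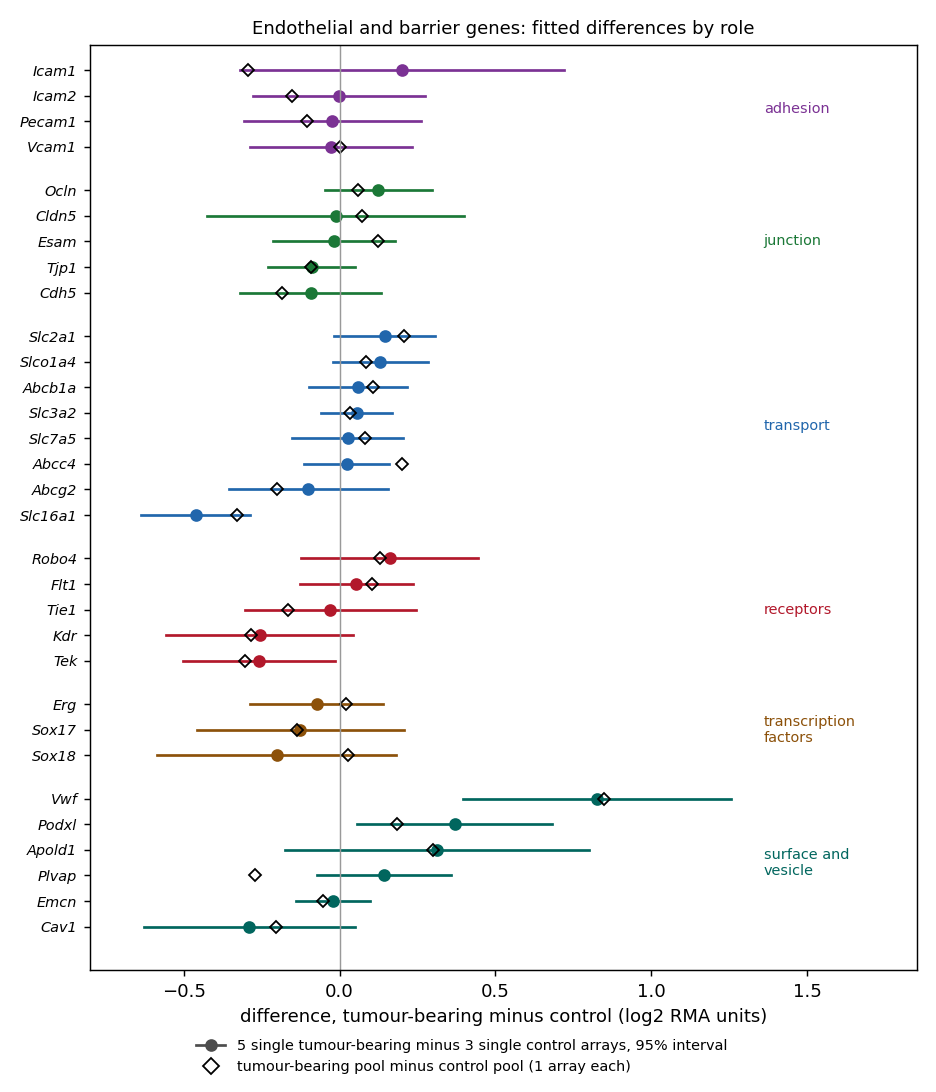
Fitted log2 differences (tumour-bearing minus control) of the 31 tested genes, arranged by role, with 95% intervals from limma (filled circles and lines, 5 tumour-bearing and 3 control mice); open diamonds are the pools, 1 array each. Vwf lies furthest right at 0.82 and Slc16a1 furthest left at -0.46, and most other intervals cross 0.

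The precision of the arrays set limits on the quiet genes. For 25 of the 31 genes the 95% interval of the difference lay inside 1.5-fold in either direction (0.58 on the log2 scale). The 6 exceptions were Vwf, Podxl, Slc16a1, Icam1, Cav1 and Apold1. These intervals are not adjusted for the number of genes, and the limit of 1.5-fold was chosen after the data were seen.

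Adhesion genes showed no difference past the threshold: 4 of the 6 were tested, 1 differed upward and 3 downward, with a median difference of -0.01. Icam1, which binds leukocyte integrins and is induced by inflammatory cytokines, had the largest difference of the 4. Its levels were 4.79, 4.29, 4.65, 4.50 and 3.91 in tumour-bearing mice, against 3.86, 4.60 and 4.22 in controls. The groups overlapped widely, and 2 tumour-bearing mice and 2 controls lay below the filter level. The fitted difference of Icam1 was 0.20 ± 0.23 (SE, limma adjusted p = 0.819), and 0.10 with values under the filter level raised to it. It was 0.02 without control 1 and 0.39 without control 2, and the pools differed the other way, by -0.29. Vcam1, the ligand of the leukocyte integrin alpha4 beta1, averaged 7.36 ± 0.21 in tumour-bearing mice (SD, n = 5) and 7.39 ± 0.13 in controls (SD, n = 3), with a 95% interval of the difference from -0.29 to 0.23. Icam2 and Pecam1, which endothelial cells carry constitutively, differed by -0.002 ± 0.12 SE and -0.02 ± 0.13 SE.

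The selectin genes, whose products slow leukocytes on the vessel wall, stayed below the filter level on all 10 arrays. Sele, E-selectin, lay at 3.35 to 3.54 in tumour-bearing mice and at 3.30 to 3.54 in controls. Selp, P-selectin, was at 2.98, 2.99, 3.60, 2.79 and 2.92 in tumour-bearing mice, against 2.67, 2.71 and 2.78 in controls. All 5 tumour-bearing values of Selp were above the 3 control values, and as every value was below the filter no fold is given. The promoter of Sele, a gene known for its induction by cytokines, is printed here because its transcript stayed below the filter level, with an ETS-type core (AGGAAG, read on either strand) in capitals. It is the RefSeq window of GRCm38.p6 from 250 bases before to 50 after the transcript start, chr1:164047984-164048283, plus strand.
Sele: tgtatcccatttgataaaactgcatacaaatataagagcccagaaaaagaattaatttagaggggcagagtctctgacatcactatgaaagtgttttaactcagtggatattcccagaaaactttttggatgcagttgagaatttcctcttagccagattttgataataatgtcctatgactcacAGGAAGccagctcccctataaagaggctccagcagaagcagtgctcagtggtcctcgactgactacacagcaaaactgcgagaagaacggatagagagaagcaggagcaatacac

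Junction genes also showed no difference past the threshold: all 5 were tested, 1 differed upward and 4 downward, and the 5 differences spanned -0.09 to 0.12. Ocln, the tight junction protein occludin, had the largest. Its levels were 5.87, 6.03, 5.95, 5.94 and 5.82 in tumour-bearing mice, against 5.78, 5.85 and 5.76 in controls. Of the 5 tumour-bearing mice 4 lay above all controls, and the difference was 0.12 ± 0.08 (SE, limma adjusted p = 0.612).

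Cldn5, the main claudin of the blood-brain barrier, was at 7.75, 7.85, 7.86, 7.60 and 7.44 in tumour-bearing mice, against 7.18, 7.91 and 8.05 in controls. The controls spread more widely than the tumour-bearing mice, with control 1 the lowest of all 8 animals. Cldn5 differed by -0.01 ± 0.18 SE, and by -0.28 without control 1. Leaving out tumour-bearing mouse 4 gave 0.01 and leaving out mouse 5 of that group gave 0.05, while omitting control 2 gave 0.09 and omitting control 3 gave 0.16, so the sign depended on single mice. Tjp1, the scaffold protein ZO-1, differed by -0.09 ± 0.06 SE, with a 95% interval from -0.23 to 0.05. Cdh5, the endothelial adherens junction cadherin, differed by -0.09 ± 0.10 SE (0.02 without control 3), and Esam, an immunoglobulin-family adhesion protein of the junction, by -0.02 ± 0.09 SE.

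Transporters included the lowest gene of the whole set. All 8 were tested, with 6 differences upward and 2 downward and a median of 0.04. Slc16a1 carries lactate, pyruvate and ketone bodies across cell membranes, and in mouse brain it is known in endothelial cells and in oligodendrocytes, the myelin-forming glia. Its levels (probe set 10495035) were 7.75, 7.90, 7.71, 7.68 and 7.51 in tumour-bearing mice, against 8.19, 8.12 and 8.21 in controls. Every tumour-bearing mouse was below every control. Slc16a1 averaged 7.71 ± 0.14 in tumour-bearing mice (SD, n = 5) and 8.17 ± 0.05 in controls (SD, n = 3), a log2 difference of -0.46 ± 0.08 (SE, limma adjusted p = 0.112). It passed the threshold when the test was limited to probe sets paired with 1 gene (limma adjusted p = 0.0201) and when tumour-bearing mouse 2 was left out (-0.51, limma adjusted p = 0.0295). Over 20 other settings of the analysis (filter, variance model, normalization, mice left out) its limma adjusted p was 0.0201 to 0.631 and its difference -0.51 to -0.38. The pools stood at 7.52 in the tumour-bearing pool and 7.85 in the control pool, so the control pool lay within the range of the individual tumour-bearing mice.

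Oligodendrocyte markers were lower alongside Slc16a1, and none passed the adjusted threshold (lowest limma adjusted p = 0.241). The 4 with a probe set of their own (Mog, Mag, Opalin and Ugt8a, of 6 listed) differed by -0.95 to -0.45. Their summed linear level was 1251, 1804, 1137, 1379 and 959.2 in tumour-bearing mice 1 to 5, against 1954, 2013 and 1897 in controls. Mouse 2 had the highest and mouse 5 the lowest tumour-bearing value of both the sum and Slc16a1. The other tumour-bearing mice were ordered differently by the sum and by Slc16a1, and the order of the controls was the opposite. The part of these markers in the Slc16a1 difference was not tested. With the mean of the 9 endothelial markers as a covariate, a choice made with the results in view, the Slc16a1 difference was -0.45 (limma adjusted p = 0.171).

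The promoter window of Slc16a1 is shown because, of the 8 transporters in the set of 35 genes, this one had separate groups. It is from the same RefSeq table, chr3:104638414-104638713, plus strand, with an E-box (CACGTG) and a SOX-type core (ACAAAG, read on either strand) in capitals.
Slc16a1: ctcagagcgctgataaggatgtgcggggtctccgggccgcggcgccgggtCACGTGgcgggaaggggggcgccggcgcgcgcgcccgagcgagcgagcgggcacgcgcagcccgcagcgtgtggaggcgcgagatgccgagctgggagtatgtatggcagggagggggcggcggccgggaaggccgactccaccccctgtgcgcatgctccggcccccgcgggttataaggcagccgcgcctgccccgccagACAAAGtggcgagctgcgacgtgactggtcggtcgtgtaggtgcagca

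Slc2a1, the glucose transporter GLUT1, was at 10.92, 10.79, 10.79, 10.81 and 10.56 in tumour-bearing mice, against 10.55, 10.67 and 10.67 in controls. Of the 5 tumour-bearing mice 4 lay above all controls, and mouse 5 lay among the controls. The difference was 0.14 ± 0.07 (SE, limma adjusted p = 0.522), and the pools differed by 0.21. Slco1a4, an organic anion transporter of brain capillaries, showed the same arrangement, with 4 of 5 tumour-bearing mice above all controls and a difference of 0.13 ± 0.07 SE (limma adjusted p = 0.542). The subunits of the large neutral amino acid transporter had small differences: Slc7a5 differed by 0.03 ± 0.08 SE and its partner Slc3a2 by 0.05 ± 0.05 SE.

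The efflux pumps had small differences as well. Abcb1a, P-glycoprotein, averaged 7.68 ± 0.10 in tumour-bearing mice (SD, n = 5) and 7.62 ± 0.11 in controls (SD, n = 3), with a 95% interval of the difference from -0.10 to 0.22. Abcc4 differed by 0.02 ± 0.06 SE and Abcg2 by -0.10 ± 0.11 SE. In all 8 transporters the pools differed in the same direction as the individual mice.

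Receptor genes of endothelium differed from -0.26 to 0.16, with 2 of 5 upward and 3 downward. Tek, which binds the angiopoietins and steadies mature vessels, was at 5.78, 6.18, 6.14, 6.03 and 5.84 in tumour-bearing mice, against 6.15, 6.27 and 6.34 in controls. Of the 5 tumour-bearing mice 4 lay below all controls, and mouse 2 lay just above control 1. The difference was -0.26 ± 0.11 (SE, limma adjusted p = 0.451), and the pools differed by -0.30. The difference of Tek was -0.21 to -0.31 with any 1 mouse left out. Over all 20 other settings of the analysis its limma adjusted p stayed at 0.317 or above.

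Kdr, the main signalling receptor for VEGF-A, was at 4.96, 5.19, 5.47, 5.08 and 5.25 in tumour-bearing mice, against 5.32, 5.64 and 5.38 in controls. All but tumour-bearing mouse 3 lay below every control, and the difference was -0.26 ± 0.13 (SE, limma adjusted p = 0.543), or -0.16 without control 2. Flt1, a VEGF receptor that acts largely as a trap for the ligand, differed by 0.05 ± 0.08 SE, and Tie1, the partner of Tek, by -0.03 ± 0.12 SE. Robo4, a receptor of endothelium, differed by 0.16 ± 0.13 SE (0.07 without control 1 and 0.25 without control 3). The Tek promoter window, shown as that of the receptor with the largest difference, is chr4:94739039-94739338, plus strand in the same table, with a SOX-type core in capitals.
Tek: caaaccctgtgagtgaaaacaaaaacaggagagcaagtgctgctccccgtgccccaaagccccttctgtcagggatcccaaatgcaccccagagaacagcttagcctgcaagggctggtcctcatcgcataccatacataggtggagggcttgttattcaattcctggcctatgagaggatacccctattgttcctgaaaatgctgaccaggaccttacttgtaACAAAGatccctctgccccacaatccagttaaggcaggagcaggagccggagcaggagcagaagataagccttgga

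RefSeq promoter windows were found for 23 of the 35 genes, 30 windows in all, and 4 motifs chosen after the data were seen were searched on both strands. The ETS-type core AGGAAG was in 15 of 30 (50%), against 35.35% of all 32851 windows in the table. The SOX-type core ACAAAG was in 4 of 30 (13.33%, against 18.71%) and the E-box CACGTG in 2 of 30 (6.67%, against 7.15%). The NF-kB-type motif, GGGNN followed directly by TTTCC, was in 0 of 30, against 1.63% of all windows. Only this exact pattern was searched, so other forms of the site were not counted, in the Sele window or elsewhere. With so low a share over all windows, 0 of 30 does not show that such sites are absent. These counts describe letters in short windows and not bound sites. The motifs do not overlap each other in the windows printed.

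The endothelial transcription factor genes all had differences below 0 and none passed the threshold. Sox18, a regulator of vessel development, was at 5.79, 5.64, 5.70, 6.05 and 5.50 in tumour-bearing mice, against 5.53, 6.07 and 6.22 in controls. Control 1 lay with the lowest tumour-bearing mice, and the difference was -0.20 ± 0.17 SE (limma adjusted p = 0.732), -0.41 without control 1 and -0.06 without control 3. Sox17 differed by -0.13 ± 0.15 SE (0.006 without control 3) and Erg, an ETS factor that maintains endothelial identity, by -0.07 ± 0.10 SE. The pools of Sox18 and Erg differed by 0.03 and 0.02, in the other direction.

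Surface and vesicle genes held the highest difference of the set, with 4 of 6 upward and 2 downward and a median of 0.23. Vwf (probe set 10541910) was at 6.77, 6.63, 7.24, 6.78 and 6.55 in tumour-bearing mice, against 5.53, 6.08 and 6.29 in controls. Every tumour-bearing mouse was above every control, and the pools were at 6.82 in the tumour-bearing pool and 5.97 in the control pool. Vwf averaged 6.79 ± 0.27 in tumour-bearing mice (SD, n = 5) and 5.97 ± 0.39 in controls (SD, n = 3), a log2 difference of 0.82 ± 0.19 (SE, 95% interval 0.40 to 1.25, limma adjusted p = 0.240). The difference was 0.61 without control 1 and 0.99 without control 3, and 0.68 without tumour-bearing mice 3 and 4, whose arrays held pituitary transcripts (a summed pituitary marker level of 1899 and 1920, against 143.1 to 299 in all other individual arrays). The same sum was 1305 in the tumour-bearing pool and 320.3 in the control pool.

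Of the 9 defining endothelial markers 8 had a negative difference (median -0.02), beside 7067 of all 12978 tested genes. Cldn5, Esam, Emcn, Pecam1 and Tie1 were close to 0, at -0.03 to -0.01. Of the 31 tested genes of the set 14 differed upward, Vwf among them, and 17 downward. In a fit with the mean of the 9 markers per array as a covariate, chosen after seeing the data, 6 genes in all were called. Vwf was among them, with a difference of 1.00 (limma adjusted p = 0.0227). Its limma adjusted p was 0.0541 to 0.631 over the other 20 settings. Summed markers of blood cells were higher alongside Vwf, and neither of the 2 tested passed the adjusted threshold. The 4 with a probe set of their own, of 8 listed, summed to 114.8, 104.5, 308.2, 129.2 and 93.98 on the linear scale in tumour-bearing mice 1 to 5, against 74.07, 70.83 and 61.08 in controls. The order of the 5 tumour-bearing mice was the same for Vwf and for this sum, and the order of the 3 controls was the opposite. Of these blood cell genes Alas2, the first enzyme of heme synthesis in red cell precursors, differed by 1.41 ± 0.42 SE (limma adjusted p = 0.307). Alas2 had the highest level of the 4 summed genes on every individual array, and its own order of mice was that of the sum. Slc4a1, the red cell anion exchanger, passed the filter level in 3 of 5 tumour-bearing mice and in 0 of 3 controls, and differed by 0.35 once lower values were set to that level (0.82 ± 0.39 SE as measured, limma adjusted p = 0.505). S100a8 and S100a9 lay below the filter, and globin genes had no probe set of their own. Their part in the Vwf difference was not tested.

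Podxl was at 6.86, 7.02, 7.18, 6.89 and 6.68 in tumour-bearing mice, against 6.25, 6.60 and 6.83 in controls. Of the 5 tumour-bearing mice 4 lay above all controls. Podxl differed by 0.37 ± 0.14 (SE, limma adjusted p = 0.410), by 0.22 without control 1 and by 0.49 with the endothelial marker covariate (limma adjusted p = 0.112, chosen after seeing the data). Apold1, an endothelial early response gene, differed by 0.31 ± 0.22 SE and was 0.16 without control 1. Cav1, the coat protein of caveolae, differed by -0.29 ± 0.15 SE and was -0.18 without control 3. Emcn, the sialomucin endomucin, had a 95% interval of only -0.14 to 0.10. Plvap, which forms the diaphragms of fenestrated capillaries, differed by 0.14 ± 0.10 SE in individual mice and by -0.27 in the pools. Nos2, the inducible nitric oxide synthase of inflamed cells, lay below the filter level on all arrays, at 3.58 to 3.89 in tumour-bearing mice and 3.54 to 3.79 in controls.

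**Figure D2:**
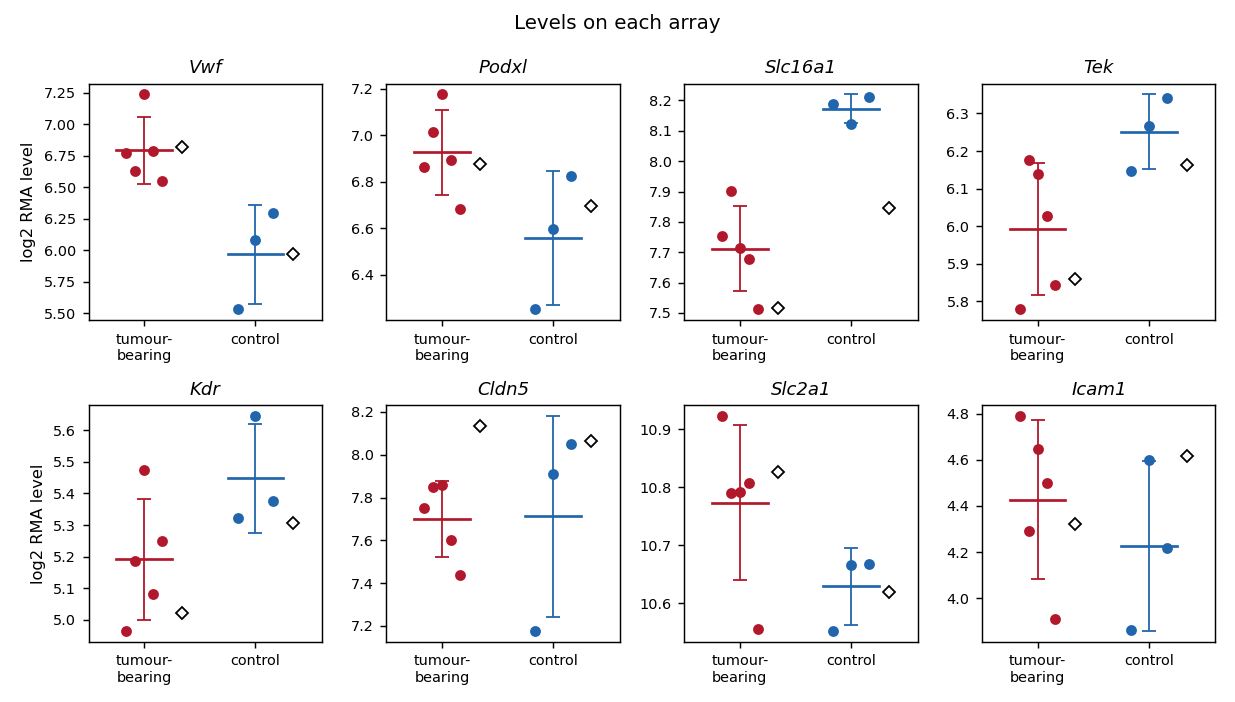
Log2 RMA levels on each array for 8 genes, with tumour-bearing mice (red, n = 5) left of controls (blue, n = 3); bars are means with SD and open diamonds the pools. Vwf is higher and Slc16a1 lower in every tumour-bearing mouse than in any control, while Cldn5 and Icam1 overlap; the vertical axes differ between panels and do not start at 0.

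The genes varied together between animals of the same group. Control 1 was the lowest of the 3 controls for 22 of the 31 genes (71%), against 39.4% of all tested genes, and control 3 was the highest for 21 (67.7%), against 33.9%. Tumour-bearing mouse 5 was the lowest of the 5 tumour-bearing mice for 17 of the 31 (54.8%), against 21.7% of all tested genes. The mean of the 9 endothelial markers was 6.59, 6.68, 6.81, 6.61 and 6.60 in tumour-bearing mice 1 to 5, against 6.54, 6.80 and 6.86 in controls 1 to 3. The 31 genes share these arrays, so the counts are a description without a test. Pericyte and smooth muscle markers (12 summed) were at 1535, 1974, 2083, 1851 and 1444 on the linear scale in tumour-bearing mice 1 to 5, against 1777, 2163 and 2476 in controls 1 to 3. Vtn had the highest level of the 12 on every individual array. Acta2 varied most, with an SD of 0.66 in tumour-bearing mice and 0.71 in controls, against 0.03 and 0.18 for Pdgfrb.

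The genes that passed an unadjusted p of 0.05 depended on single controls. Without control 1, 4 of the 31 genes were lower at an unadjusted limma p under 0.05 (Cldn5, Sox18, Slc16a1 and Tek) and 1 was higher (Vwf), with 0 called after adjustment. Without control 2, control 3, or tumour-bearing mouse 1, 4 or 5, Slc16a1 alone was lower. Vwf and Slc16a1 were past an unadjusted p of 0.05 in limma in each of the 20 settings.

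**Figure D3:**
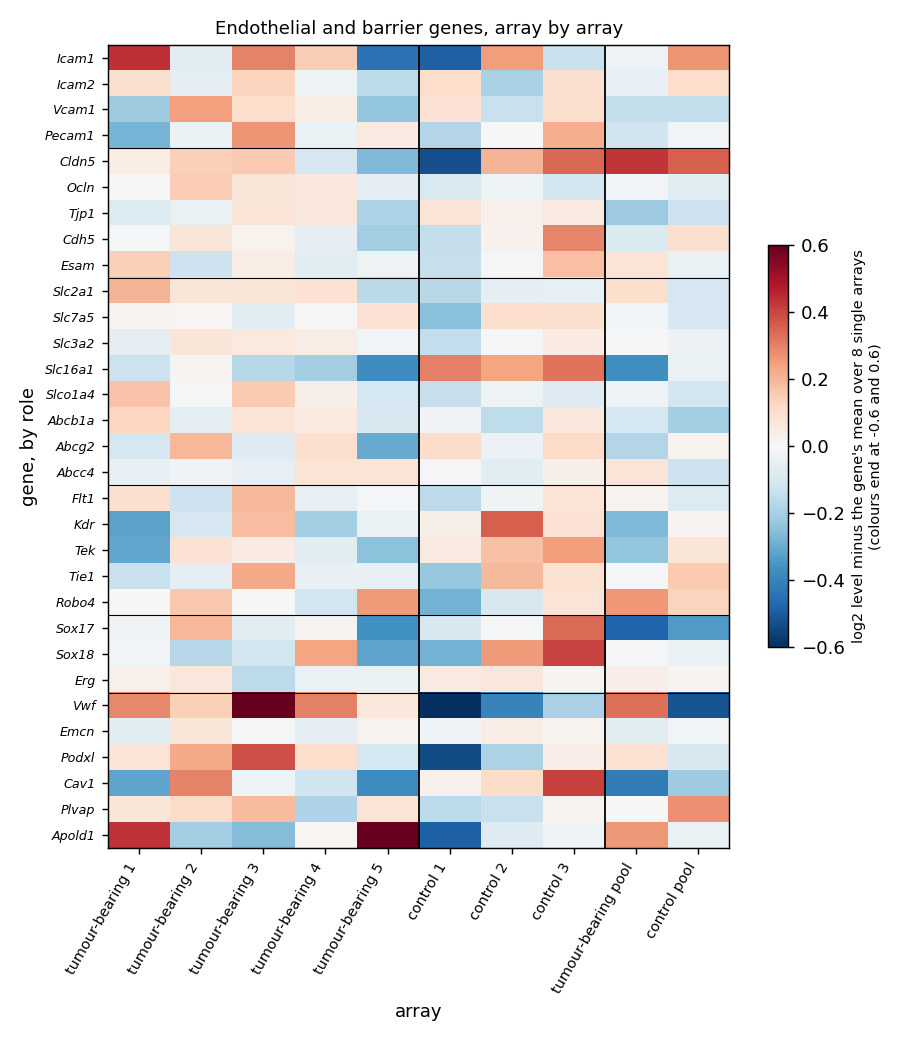
Log2 level minus the gene's mean over the 8 individual arrays, for the 31 tested genes (rows, by role) on 10 arrays (columns; tumour-bearing mice 1 to 5, controls 1 to 3, then the pools); red is higher and blue lower. The Vwf row is red in tumour-bearing mice and blue in controls, the Slc16a1 row is red in all 3 controls, and the control 1 column is bluer than the control 3 column.

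Beyond the 35 genes, 81 other genes of the same pathways were listed, of which 72 were tested. These lists were drawn up with earlier results of these data known, so the shares given beside the counts are a description without a test. By limma 1 rose after adjustment and 0 fell, against 0.0771% of all tested genes called. At an unadjusted p under 0.05 there were 2 higher (Mfsd2a and Flt4) and 8 lower, against 3.78% and 6.51% of all tested genes. The gene that rose was Mfsd2a, the lysophospholipid transporter of brain endothelium, at 9.77, 9.41, 9.62, 9.62 and 9.59 in tumour-bearing mice, against 9.02, 9.03 and 9.12 in controls (log2 0.55 ± 0.07 SE, limma adjusted p = 0.0361). This call was lost in 11 of the 20 settings, where the difference stayed at 0.51 to 0.58. Among the 14 further transporters 1 was higher (Mfsd2a) and 4 were lower at an unadjusted p under 0.05, beside the same 3.78% and 6.51% of all tested genes. The groups did not overlap for the same genes, 1 higher and 4 lower, against 3.11% and 5.19% of all tested genes. The 4 lower ones were Slc40a1, Slco1c1 (-0.35 ± 0.09 SE), Slc22a8 (-0.41 ± 0.15 SE) and Slc38a3 (-0.21 ± 0.07 SE). Slc40a1, the iron exporter ferroportin, was at 4.89, 5.34, 5.28, 5.18 and 5.12 in tumour-bearing mice, against 5.64, 5.61 and 5.85 in controls. All 5 tumour-bearing mice lay below the controls, and the difference of -0.53 ± 0.12 SE did not pass (limma adjusted p = 0.226).

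Of 12 genes of the growth factor axis 0 passed the threshold. The VEGF-A gene Vegfa differed by -0.01 ± 0.04 SE. Flt4, the receptor for VEGF-C, passed the filter level in 4 of 5 tumour-bearing mice and in 0 of 3 controls, so it entered the test only through the tumour-bearing group. Its difference was 0.09 with values under the filter level raised to it (0.30 ± 0.13 SE as measured, limma adjusted p = 0.463). The ligand gene Pgf differed by -0.16 ± 0.08 SE without overlap of the groups, and its pools differed by 0.12, in the opposite direction. Of 14 genes of Wnt signalling, which induces and maintains the barrier, 10 differed downward and 4 upward with a median of -0.07, and Ndp, which encodes the ligand norrin, differed by -0.22 ± 0.09 SE. Apcdd1, which encodes a Wnt inhibitor, differed by -0.10 ± 0.05 SE without overlap of the groups (limma adjusted p = 0.473). In the other direction Axin2, of the same list, differed by 0.13 ± 0.07 SE, also without overlap (limma adjusted p = 0.555). Separate groups in the Wnt list thus numbered 1 higher and 1 lower, against 3.11% and 5.19% of all tested genes. Of 10 further junction genes 8 differed downward, and Jam2, a junctional adhesion molecule, had the smallest p (-0.19 ± 0.05 SE, limma adjusted p = 0.296). Cgn, the junction plaque protein cingulin, differed by -0.19 ± 0.11 SE.

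Among 15 tested further endothelial genes the median difference was 0.01. Itm2a was at 7.84, 8.24, 8.20, 8.11 and 7.88 in tumour-bearing mice, against 8.42, 8.35 and 8.36 in controls, with no overlap (-0.32 ± 0.09 SE, limma adjusted p = 0.304). Thbd, the anticoagulant receptor thrombomodulin, differed by -0.38 ± 0.17 SE (limma adjusted p = 0.479), and by -0.19 without control 3. Of the leukocyte partners of the adhesion molecules none was past an unadjusted limma p of 0.05: of 7 tested 2 differed upward and 5 downward, with Itgam, an integrin subunit of myeloid cells, at -0.29 ± 0.16 SE Selplg, the P-selectin ligand gene, at -0.08 ± 0.07 SE and Ptprc, the pan-leukocyte marker CD45, at -0.09 ± 0.13 SE.

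**Figure D4:**
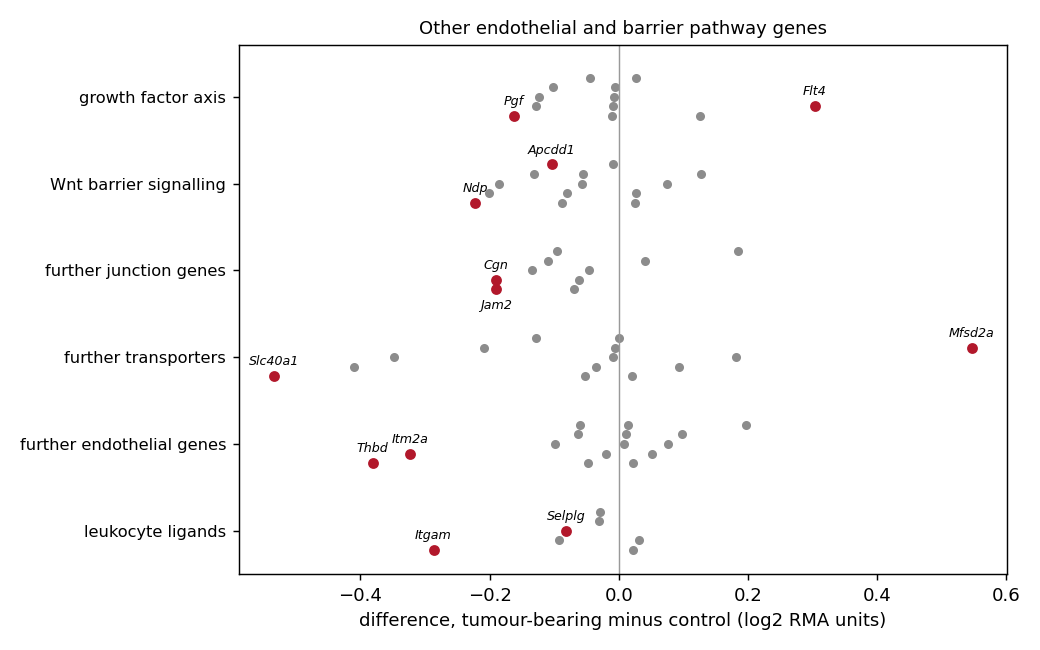
Log2 differences (tumour-bearing minus control, individual mice) of 72 further endothelial and barrier pathway genes in 6 lists (rows); each point is 1 gene, vertical offsets within a row only separate points, and red, labelled points are the genes with the smallest p in each list. Mfsd2a at 0.55 and Slc40a1 at -0.53 lie at the ends of the range.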

How the data were processed

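Hypothalamic RNA was measured on whole-transcript arrays, 1 per individual mouse and 1 per pool. The deposited values are log2 expression levels from the authors' RMA step, which the submitters' processing notes name; version, probe set definition and genome build are not given in the sources used here, and the log2 scale was inferred from the range of values. RMA hides shifts shared by all transcripts and compresses folds.

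Of 35556 probe sets 21218 were paired with 1 gene; the brightest stood for a gene. The 22837 probe sets that exceeded 20 (linear) in 3 or more of 8 individual mice were fitted with limma 3.58.1 in R 4.3.3 (lmFit, eBayes with an intensity trend), with Benjamini-Hochberg adjustment over all of them, threshold 0.05. The test was checked on simulated data. Replicate numbers did not pair the samples. The number of arrays limits precision.

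The genes and lists were chosen with earlier results of these data known. Values per mouse are given for genes of the set past an unadjusted p of 0.05, with separate groups, or with the largest difference of a role. From each pathway list the called genes and the 2 with the smallest p are named. Of these Mfsd2a, Slc40a1 and Itm2a are given per mouse, as is the pericyte marker Rgs5, and the others by their difference. The values per mouse of Cldn5, Slc2a1, Kdr and Selp were added after they were seen. So were Vegfa, Ptprc, Axin2, Slco1c1, Slc22a8 and Slc38a3 by name. Alternatives varied the filter, the probe sets tested, the variance model, array weights, normalization, a replicate block, the pools and single mice.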

Additional observations from a re-analysis of the deposited data

Results flagged for a closer look

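Among the 5 tumour-bearing mice 3 of 46 genes tried had a single animal far from the other 4 by the ratio of its gap to the group's range; chance alone flags about 1 gene in 20. Selp was 3.60 in tumour-bearing mouse 3, with the next highest at 2.99, and all values lay below the filter level. Tie1 was 5.78 in tumour-bearing mouse 3, with the next highest at 5.51. Selplg, the P-selectin ligand gene, was 6.66 in tumour-bearing mouse 5, with the next lowest at 6.86.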

How the results depend on the processing

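Over all genes 10 were called; the count was 3 with no filter, 68 with only probe sets of 1 gene, 3 without the intensity trend, 17 with array weights, 0 without tumour-bearing mice 3 and 4, and 6 with the endothelial covariate (chosen after seeing the data), and 0 (without control 3) to 53 (without tumour-bearing mouse 2) leaving out 1 mouse. Of the 31 genes 0 were called, with 1 (Slc16a1) when only probe sets of 1 gene were tested, and 0 to 1 leaving out 1 mouse. Members at an unadjusted limma p under 0.05 numbered 2 higher (1 without mice 3 and 4, 1 to 4 leaving out 1 mouse, the highest without tumour-bearing mouse 5) and 2 lower (1 to 4 leaving out 1 mouse, the highest without control 1). Separate groups numbered 1 higher (2 with no filter, 2 without mice 3 and 4, 1 to 5 leaving out 1 mouse) and 1 lower (0 with pools as samples, 3 without mice 3 and 4, 1 to 5 leaving out 1 mouse). Leaving out mice can only keep or raise these counts of separate groups, and adding the pools can only keep or lower them. With replicate number as a block, which shares only a number (correlations of deviations -0.002, 0.008 and 0.009), 0 genes were called over all and 1 member was lower, while differences of Icam2 (0.0588), Vcam1 (0.0294), Cldn5 (0.11), Esam (0.0101) and Abcc4 (-0.0245) changed sign. Array weights turned Icam2 (0.0575), Vcam1 (0.0555) and Slc7a5 (-0.0422), and the pools turned Esam (0.0095). Leaving out 1 mouse turned 12 near-zero differences, over ranges of -0.10 to 0.0491 for Icam2, -0.10 to 0.0289 for Vcam1, -0.12 to 0.0798 for Pecam1, -0.28 to 0.16 for Cldn5, -0.19 to 0.0242 for Cdh5, -0.0941 to 0.0655 for Esam, -0.0902 to 0.0856 for Slc7a5, -0.0014 to 0.10 for Slc3a2, -0.0036 to 0.0478 for Abcc4, -0.0072 to 0.11 for Flt1, -0.15 to 0.0577 for Tie1 and -0.21 to 0.006 for Sox17. The cause of these changes was not tested. Averaging probe sets within a gene left the 31 differences unchanged, as each had 1 probe set.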

Other observations

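Markers of pericytes and smooth muscle, the cells that wrap endothelium, were lower in 10 of 11 tested members, beside 7067 of all 12978 tested genes. Their median difference (tumour-bearing minus control) was -0.10, and 0 passed the adjusted threshold of limma. At an unadjusted limma p under 0.05 there were 2, both lower, against 6.51% of all tested genes. Rgs5, a pericyte regulator of G protein signalling, was at 7.34, 7.45, 7.39, 7.30 and 7.18 in tumour-bearing mice, against 7.66, 7.80 and 7.71 in controls. Every tumour-bearing mouse lay below every control (-0.39 ± 0.07 SE, limma adjusted p = 0.112). Vtn, the vitronectin gene, differed by -0.36 ± 0.14 SE and Pdgfrb, their defining growth factor receptor, by -0.09 ± 0.08 SE. Microglial markers were lower in 5 of 5 tested members (median -0.21) and meningeal markers in 6 of 6 (median -0.28), beside the same 7067 of 12978 genes. In either list 0 were past an unadjusted limma p of 0.05.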
